A study of Mus musculus with 20 samples.

Results

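Adenosine-to-inosine RNA editing was compared between untreated mouse embryonic fibroblasts (MEFs, connective tissue cells grown from mouse embryos) of the line labelled ADAR1_NULL and untreated MEFs of the line labelled ADAR1_WT, here called ADAR1-null and wild type. The members are the listed editing sites that had at least 50 reads in all 4 libraries, 2 of each line. This left 5278 sites in 237 loci, of 48425 sites in 11135 loci listed and 10692 sites in 409 loci with a read in any of the 20 libraries of the series. A locus is a gene, or a group of intergenic sites within 5 kb of each other.

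The series measured amplicons made by reverse-transcription PCR in MEF lines that were kept untreated or given interferon. The design text speaks of 6 lines, of which 5 are analysed here, each with 2 libraries per treatment state. Besides ADAR1-null and wild type, these are a line labelled P150_KO (p150 knockout), a line labelled ADAR2_NULL and a line labelled STAT2_NULL. The labels give no strain, sex, embryonic age, deleted exon or number of independent isolates, and they do not say that the wild-type line is a littermate control of the ADAR1-null line. A difference between 2 lines can therefore not be told apart from a difference between their genotypes at other loci. The labels number the replicates and do not say whether each was its own culture. The p-values therefore reflect the spread between the libraries alone, which may be technical.

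ADAR1 and ADAR2 bind double-stranded RNA and deaminate adenosine to inosine, which pairs like guanosine and is read as G in cDNA. ADAR1 is made as a constitutive, mainly nuclear p110 form and as an interferon-inducible p150 form that also acts in the cytoplasm, while ADAR2 is the product of Adarb1. Most known targets in mouse are inverted repeats in 3′ UTRs and introns, where many adenosines of 1 duplex are edited, and a small number of coding sites are edited selectively by ADAR1 or by ADAR2. The editing level is the percentage of reads over a site that carry the edited base.

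Total coverage summed over sites was 5082307 and 5559674 in the ADAR1-null libraries and 5138827 and 5517435 in the wild-type libraries. ADAR1-null library 1 spread its reads over fewer sites: 5652 of its sites had 50 reads, against 7575 to 8405 in the other 3 libraries, and 1774 sites were left out because of that library alone. At the sites tested below, the median coverage was 597 and 542.5 reads in ADAR1-null libraries and 575.5 and 584 reads in wild-type libraries. Amplicon reads carry no molecular identifiers, so limits drawn from read counts cover counting error only. Sites within 1 amplicon share reads and are not independent of each other. The tables hold editing sites and no expression values, and none of the 5 sites listed in Adar had the coverage, so neither the loss of ADAR1 nor the fibroblast identity could be checked here.

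Editing was far lower in ADAR1-null cells, and most of the sites called lower below had a mean level under 1% there. Of the 5278 sites, 4892 had a mean level under 1% over the 4 libraries and were not tested. Over those sites, edited reads made up 0.166% and 0.258% of all reads in ADAR1-null libraries and 0.289% and 0.285% in wild-type libraries. The sites were chosen for low levels in these same libraries, so these values are not a measured background of the assay. After interferon, the mean level over the same sites was 1.22% and 1.42% in wild-type libraries. The remaining 386 sites in 114 loci were tested with edgeR's quasi-likelihood test on edited and unedited reads, with Benjamini-Hochberg adjustment over the 386 sites. At an adjusted p under 0.05, 190 sites in 69 loci were called, which is 49.2% of those tested. With no minimum level, 168 of the 4499 sites with an edited read in any of the 4 libraries were called (3.73%). Of the 190 sites, 189 (49.0%) were lower in ADAR1-null cells and 1 (0.259%) was higher. At the 189 sites the ADAR1-null mean was under 1% at 158 and at least 5% at 4. A further 38 sites were at least 5 points lower in ADAR1-null cells and were not called. With the 4 libraries fitted alone 113 sites were called, and with a minimum level of 5% 89 of 109.

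The filter on level favours sites that are high in either line. It was passed by 283 sites through wild-type cells only, by 18 through ADAR1-null cells only and by 85 through both, so the counts over the 386 sites describe that selection. At 276 sites every ADAR1-null library was lower than every wild-type library, at 7 every one was higher, and at 103 the groups overlapped, beside the 49.2% of sites called. Averaged over the 386 sites, the level was 1.18% in ADAR1-null library 1 and 1.19% in library 2, against 8.30% and 7.89% in the wild-type libraries. The difference of the means was -6.91 percentage points, and an exact two-sided permutation test gave p = 0.333, the smallest that 2 against 2 libraries allow. The median site had 0.328% in ADAR1-null cells and 4.44% in wild-type cells. A level of at least 5% was reached by 9 sites in ADAR1-null cells and by 179 in wild-type cells, and a level of at least 20% by 3 and by 28.

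**Figure D1:**
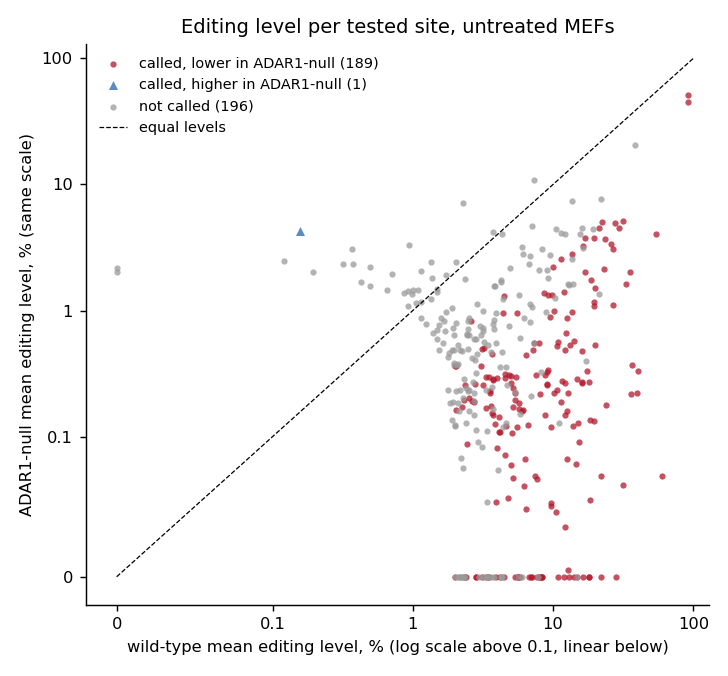
Mean editing level of each of the 386 tested sites in untreated ADAR1-null cells (vertical axis, %) against wild-type cells (horizontal axis, %), both axes on a log scale above 0.1% and linear below, each point the mean of 2 libraries. The 189 sites called lower lie under the dashed line of equal levels, the 1 site called higher is the triangle above it, and 59 sites had no edited read in either ADAR1-null library.

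The same 2 lines were also compared at sites chosen by their level in the STAT2-null line, which uses neither group's values. In untreated STAT2-null cells, 362 of the 5278 sites had a mean level of 1% to 5%, 98 had 5% to 20% and 25 had at least 20%. In the band from 1% to 5%, the mean level was 0.400% and 0.574% in ADAR1-null libraries and 2.66% and 2.34% in wild-type libraries. In the band from 5% to 20%, it was 1.21% and 1.02% in ADAR1-null libraries and 10.6% and 9.76% in wild-type libraries. In the highest band, it was 6.09% and 5.71% in ADAR1-null libraries and 31.4% and 28.7% in wild-type libraries. ADAR1-null cells were under 1% at 320 of 362, 69 of 98 and 12 of 25 sites of these bands. Of these 485 sites 21 had no edited read in the 4 libraries, and of the other 464 edgeR's quasi-likelihood test called 166 (35.8%), 164 lower and 2 higher in ADAR1-null cells.

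With each gene represented by its called site of greatest decrease, 15 of the 16 genes that fell most are described here. Of the 16, 14 fell at a 3′ UTR site, beside 321 of the 386 tested sites and 160 of the 189 called lower. Positions are given as the files list them on mm9. Cds2, which makes CDP-diacylglycerol for phospholipid synthesis, had 0 edited of 504 reads and 1 of 695 reads at its 3′ UTR site on chromosome 2 at 132135616 in ADAR1-null cells, against 59.6% and 59.3% in wild-type cells. This was the greatest difference among the tested sites, -59.3 points (SE 0.161, n = 2 libraries each, edgeR's quasi-likelihood test, adjusted p = 3.99e-05). Of the 4 tested Cds2 sites 3 were called lower, and the one at 132135475, at 1.47% in ADAR1-null cells and 1.01% in wild-type cells, was not called.

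Nt5dc3, which carries a 5′-nucleotidase domain, had 3.73% and 4.30% in ADAR1-null cells at chromosome 10, 86300002, against 54.6% and 53.0% in wild-type cells. The libraries of each line lay within 2 points of each other, and the difference was -49.8 points (SE 0.870, edgeR's quasi-likelihood test, adjusted p = 0.000135). The site kept 7.46% of the wild-type level. Its neighbour 3 bases on, at 86300005, had a mean of 0.179% in ADAR1-null cells against 23.9% in wild-type cells and was also called lower.

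Genes that respond to DNA damage or guard chromosome segregation were among those with the greatest decreases. Mdc1, a mediator of the DNA damage checkpoint, had 0% and 0.735% in ADAR1-null cells at chromosome 17, 35994679, against 38.5% and 34.9% in wild-type cells (-36.3 points, SE 1.86, edgeR's quasi-likelihood test, adjusted p = 4.93e-05). A second Mdc1 site, at 35995565, had 2.06% and 1.95% in ADAR1-null cells, against 35.6% and 35.5% in wild-type cells. Mad2l1, a component of the spindle checkpoint, had 2 edited of 1519 reads and 0 of 1223 reads in ADAR1-null cells at chromosome 6, 66490075, against 29.9% and 33.3% in wild-type cells (adjusted p = 7.51e-06 by edgeR's quasi-likelihood test). Rpa1, the large subunit of replication protein A, differed from these: its site at chromosome 11, 75114517, was still edited in 35 of 70 reads and in 37 of 91 reads (40.7%) in ADAR1-null cells, against 93.9% and 90.8% in wild-type cells. The decrease of -47.0 points (SE 4.91) passed edgeR's quasi-likelihood test (adjusted p = 0.00170). Fitted on the 4 libraries alone, its adjusted p was 0.0738.

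Sites of Car5b, Ncl and Exoc8 were close to 0% in ADAR1-null cells. Car5b, a mitochondrial carbonic anhydrase, had 0% and 0.446% in ADAR1-null cells at chromosome X, 160415964, against 40.3% and 39.2% in wild-type cells. The site of Ncl, which encodes nucleolin, at chromosome 1, 88245381, had no edited read among 96 and 167 reads in ADAR1-null cells, against 34.0% and 22.5% in wild-type cells. With 3 edited reads as the floor over the group, a level of up to 1.14% remained possible. The wild-type mean of 28.2% was 24.7-fold that floor, which covers counting error only. Exoc8, a subunit of the exocyst that tethers secretory vesicles, had 1.44% and 0.769% in ADAR1-null cells at chromosome 8, 127418084, against 26.0% and 27.2% in wild-type cells. The proteasome subunit gene Psma3 kept more, with 4.97% and 5.36% in ADAR1-null cells at chromosome 12, 72095616, against 31.7% and 31.5% in wild-type cells. Its adjusted p was 0.00425 by edgeR's quasi-likelihood test and 0.0670 with the 4 libraries alone.

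In 3 further genes the libraries of a line differed widely. 2900026A02Rik had 0 of 82 reads and 0.661% in ADAR1-null cells at chromosome 5, 113516847, against 32.5% and 48.7% in wild-type cells. Ovca2 had 0% and 0.144% in ADAR1-null cells at chromosome 11, 74989846, against 27.9% and 16.2% in wild-type cells. C330018D20Rik had 0.207% and 4.06% in ADAR1-null cells at chromosome 18, 57116643, against 32.2% and 14.2% in wild-type cells. In all 3 genes both ADAR1-null libraries stayed below both wild-type libraries. The adjusted p of C330018D20Rik by edgeR's quasi-likelihood test was 0.00957, and 0.115 with the 4 libraries alone. The call was also lost without ADAR1-null library 1 and without wild-type library 1. The 3′ UTR site of the transcript uc009qeo.1 at chromosome 9, 66221404, had 7.69% and 2.13% in ADAR1-null cells and 27.5% and 27.6% in wild-type cells. Its adjusted p by edgeR's quasi-likelihood test was 0.0434. The call was lost with no minimum level, with the minimum over all 20 libraries, with the 4 libraries alone, with the replicate block and in limma. It was also lost without ADAR1-null library 2 and without either wild-type library.

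**Figure D2:**
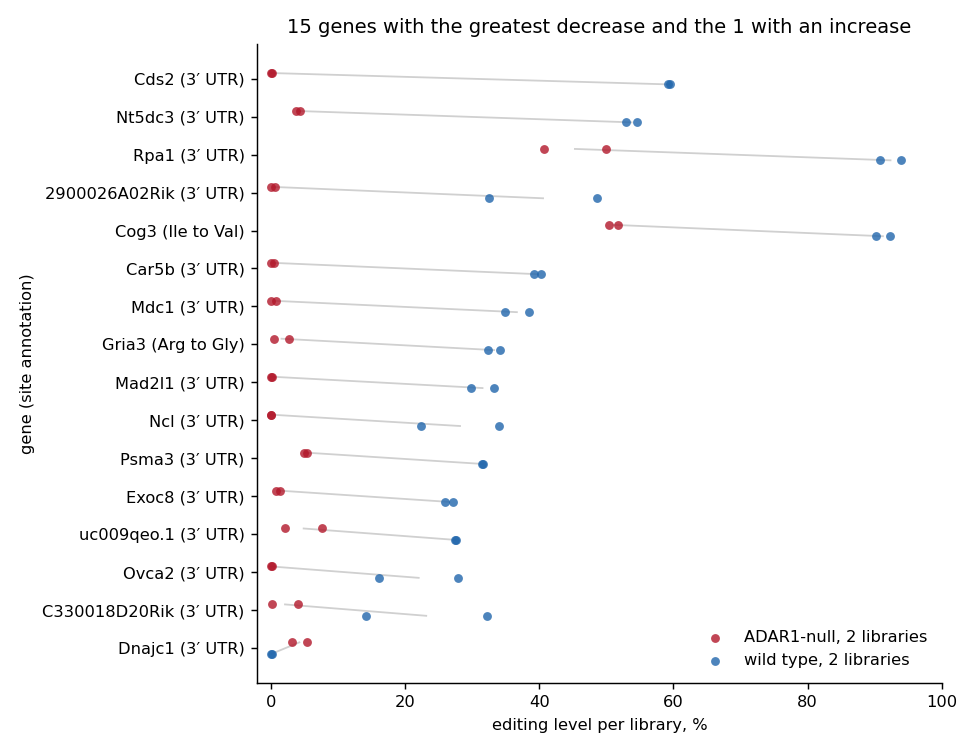
Editing level (%) in each ADAR1-null library (upper, red) and each wild-type library (lower, blue) at the site with the greatest decrease in 15 genes and at the 1 site called higher, with a line joining the 2 means. Only Rpa1 and Cog3 stay above 40% in ADAR1-null cells, while Dnajc1, at the bottom, is the 1 site where the ADAR1-null points lie to the right.

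Of 153 nonsynonymous sites with the coverage, 13 were tested and 8 were called, all lower in ADAR1-null cells, beside 49.0% of all tested sites. Cog3 encodes a subunit of the COG complex, which tethers vesicles at the Golgi, and its Ile-to-Val site is a known target of ADAR2. That site, at chromosome 14, 76119526, was edited at 50.4% and 51.7% in ADAR1-null cells, against 92.3% and 90.2% in wild-type cells. The difference was -40.2 points (SE 1.23, edgeR's quasi-likelihood test, adjusted p = 0.000999). With replicate number as a block, fitted on the 4 libraries, the site had an adjusted p of 0.0854 by the same test and was not called. Its mean of 51.1% was above that of every other tested site in ADAR1-null cells. The base next to it, at 76119527, which is a synonymous site, had means of 7.68% in ADAR1-null cells and 22.1% in wild-type cells and was not called. The Lys-to-Arg site 5 bases away, at 76119531, had 0.800% and 1.51% in ADAR1-null cells and 0.925% and 1.18% in wild-type cells, and the groups overlapped.

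Blcap, whose recoding sites are known targets of ADAR1, kept almost no editing in ADAR1-null cells. Its Tyr-to-Cys site at chromosome 2, 157383885, had 0.388% and 0.181% in ADAR1-null cells, from 5420 and 4424 reads, against 17.4% and 12.3% in wild-type cells. It had the lowest adjusted p of the comparison among the sites named here, 2.36e-06 by edgeR's quasi-likelihood test. The Gln-to-Arg site at 157383876 had 0.259% and 0.362% in ADAR1-null cells, against 11.4% and 3.73% in wild-type cells. The Lys-to-Arg site at 157383846 had 0.259% and 0.198% in ADAR1-null cells, against 4.91% and 2.20% in wild-type cells. All 3 sites were called lower, and their ADAR1-null levels lay close to the 0.166% and 0.258% read over the sites under 1%. The Asn-to-Ser site of Neil1, a DNA glycosylase gene, had no edited read among 73 and 315 reads in ADAR1-null cells and 3.23% and 0.962% in wild-type cells, and was not called (adjusted p = 0.0997 by edgeR's quasi-likelihood test). At that depth an ADAR1-null level of up to 0.773% remained possible.

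Gria3, an AMPA-type glutamate receptor subunit, had 2.75% and 0.467% in ADAR1-null cells at its Arg-to-Gly site on chromosome X at 39007429, against 32.4% and 34.2% in wild-type cells. Its adjusted p by edgeR's quasi-likelihood test was 0.00647, and 0.0577 without ADAR1-null library 2. Flna, which encodes a crosslinker of actin filaments, was called lower at its Gln-to-Arg site. That site, at chromosome X, 71472201, had 0.652% and 0% in ADAR1-null cells, against 7.77% and 10.3% in wild-type cells, with an adjusted p of 0.0119 by edgeR's quasi-likelihood test and of 0.0693 without ADAR1-null library 2. A Thr-to-Ala site annotated to uc008wxi.1, at chromosome 5, 31475853, was also called, with 0.307% and 0.370% in ADAR1-null cells and 9.97% and 8.51% in wild-type cells.

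The other 3 nonsynonymous sites that were tested and not called had low levels in at least 1 wild-type library. The Gln-to-Arg site of Tmem63b had 0.365% and 0.600% in ADAR1-null cells and 1.78% and 2.01% in wild-type cells (adjusted p = 0.184 by edgeR's quasi-likelihood test). The Thr-to-Ala site of the potassium channel gene Kcna1 had 0.187% and 0.263% in ADAR1-null cells and 0.152% and 10.5% in wild-type cells, so that a single wild-type library carried the whole difference. Without that library the difference was 0.0732 points, and without the other wild-type library it was called lower by edgeR's quasi-likelihood test (adjusted p = 0.00552). The Thr-to-Ala site of AI607873, now named Ifi207, had 0% and 0.936% in ADAR1-null cells and 6.23% and 1.04% in wild-type cells. It was called only without wild-type library 2 (adjusted p = 0.0477 by edgeR's quasi-likelihood test).

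**Figure D3:**
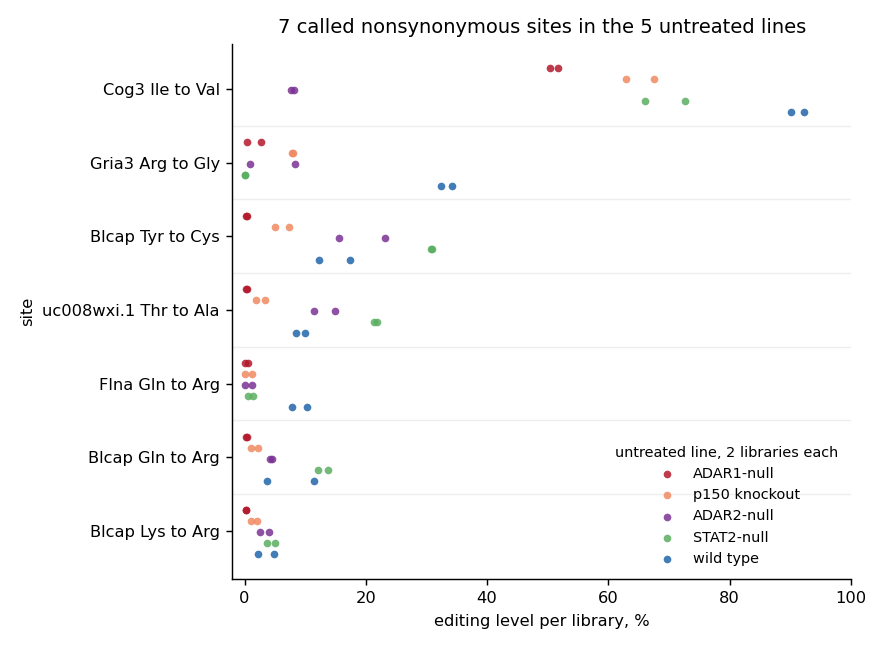
Editing level (%) in each library of the 5 untreated lines at 7 of the 8 nonsynonymous sites called lower in ADAR1-null against wild-type cells, with ADAR1-null on top and wild type at the bottom of each row. At Cog3 the ADAR2-null points, near 8%, are the lowest of the 5 lines, whereas at the 3 Blcap sites the ADAR1-null points, under 0.4%, are the lowest.

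The mean level in ADAR1-null cells was at least 1% at 103 tested sites (18 and 85 above) and at least 5% at 9, and the 10 genes with the highest level are described here. Only Cog3, Rpa1 and the noncoding RNA uc012aji.1 exceeded 20%. The uc012aji.1 site, at chromosome 17, 6122636, had 23.3% and 18.1% in ADAR1-null cells and 33.5% and 43.8% in wild-type cells, with 5158 and 4939 ADAR1-null reads. It did not pass (adjusted p = 0.0748 by edgeR's quasi-likelihood test), and it was called with a minimum level of 5% (adjusted p = 0.0422). Of the 10 other tested sites of uc012aji.1, 7 were called lower, and they ranged in mean level from 0.161% to 4.54% in ADAR1-null cells and from 1.70% to 21.3% in wild-type cells.

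Als2cl, which encodes a protein related to the guanine nucleotide exchange factor alsin, was the only one of these genes with more editing in both ADAR1-null libraries than in both wild-type libraries. Its 3′ UTR site at chromosome 9, 110802807, had 11.4% and 10.4% in ADAR1-null cells and 6.79% and 7.92% in wild-type cells, a difference of 3.51 points (SE 0.752) that did not pass edgeR's quasi-likelihood test (adjusted p = 0.555). In the Mad2l1 3′ UTR the site at 66490208 had 8.40% and 6.47% in ADAR1-null cells, from 10706 and 10251 reads. It had 14.0% and 13.4% in wild-type cells (adjusted p = 0.197 by edgeR's quasi-likelihood test). The 4933407H18Rik site (now Uvssa, a factor of transcription-coupled repair) at chromosome 5, 33758586, had 4.04% and 6.08% in ADAR1-null cells, against 21.0% and 23.9% in wild-type cells. Its adjusted p by edgeR's quasi-likelihood test was 0.0247 and reached 0.228 in the alternatives. The call was lost with no minimum level, with the 4 libraries alone and with the replicate block. It was also lost without ADAR1-null library 1 and without either wild-type library. Agphd1 (now Hykk, hydroxylysine kinase) had 5.14% and 3.91% in ADAR1-null cells at chromosome 9, 54795039, and 13.1% and 19.1% in wild-type cells (adjusted p = 0.188 by edgeR's quasi-likelihood test). Cycs, the cytochrome c gene, stood at 13.3% from 60 reads in ADAR1-null library 1 and at 0.993% in library 2, against 0% and 4.59% in wild-type cells, and without library 1 the difference was -1.30 points.

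**Figure D4:**
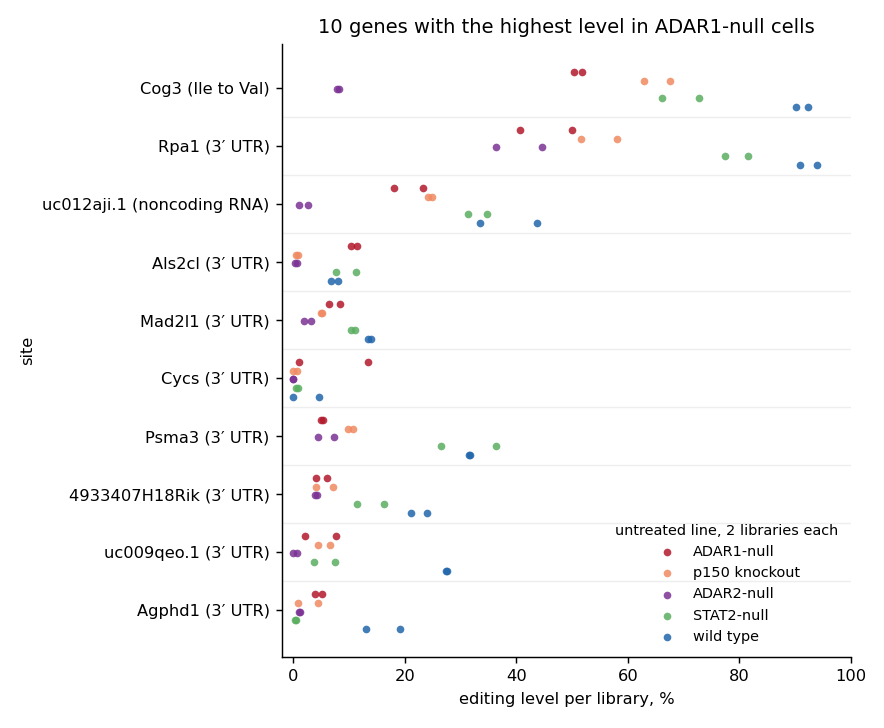
Editing level (%) in each library of the 5 untreated lines at the site with the highest ADAR1-null level in 10 genes, ordered from the highest down, with ADAR1-null on top and wild type at the bottom of each row. At Cog3 and uc012aji.1 the ADAR2-null points lie far to the left of all others, and at Als2cl the ADAR2-null and p150 knockout points lie under 1% while the ADAR1-null points lie above 10%.

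One site was called higher. Dnajc1 encodes a DnaJ co-chaperone of the endoplasmic reticulum, and its 3′ UTR site at chromosome 2, 18136982, had 22 edited of 700 reads and 46 of 853 reads in ADAR1-null cells. These are levels of 3.14% and 5.39%, against 0.226% and 0.0873% in wild-type cells, a difference of 4.11 points (SE 1.13, edgeR's quasi-likelihood test, adjusted p = 0.00647). Of the 15 other tested Dnajc1 sites, which lie within 825 bp, 5 were called lower. The site at 18136282 had 0% and 0.973% in ADAR1-null cells, against 10.6% and 13.7% in wild-type cells. Its adjusted p by edgeR's quasi-likelihood test was 0.0279, 0.161 without ADAR1-null library 1 and 0.0662 without wild-type library 2. After interferon the order at 18136982 was the opposite, with a mean of 0.547% in ADAR1-null cells and 20.2% in wild-type cells.

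Sites of 1 gene did not all fall to the same level. Among 24 loci with at least 5 tested sites, all sites were called in 2 (Ankrd28 with 8 of 8 and Gnl3l with 7 of 7), none in 1 (Ebna1bp2 with 0 of 5) and some in 21, beside the 49.2% called over all tested sites. In Mad2l1, 18 of 22 sites over 766 bp were called lower. Apart from 66490208, its sites ranged in mean level from 0% to 4.70% in ADAR1-null cells and from 1.54% to 31.6% in wild-type cells. In Rpa1, 6 of 11 sites over 58 bp were called lower. Apart from 75114517, its sites ranged from 0% to 4.51% in ADAR1-null cells and from 1.38% to 29.4% in wild-type cells. The Rpa1 site with a mean of 45.3% thus stood among tested neighbours with means under 5% in ADAR1-null cells. Fbxl17, an F-box gene, had 8 of 12 sites called lower, Gla 8 of 15, 2900026A02Rik 8 of 16 and Ncl 5 of 14.

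**Figure D5:**
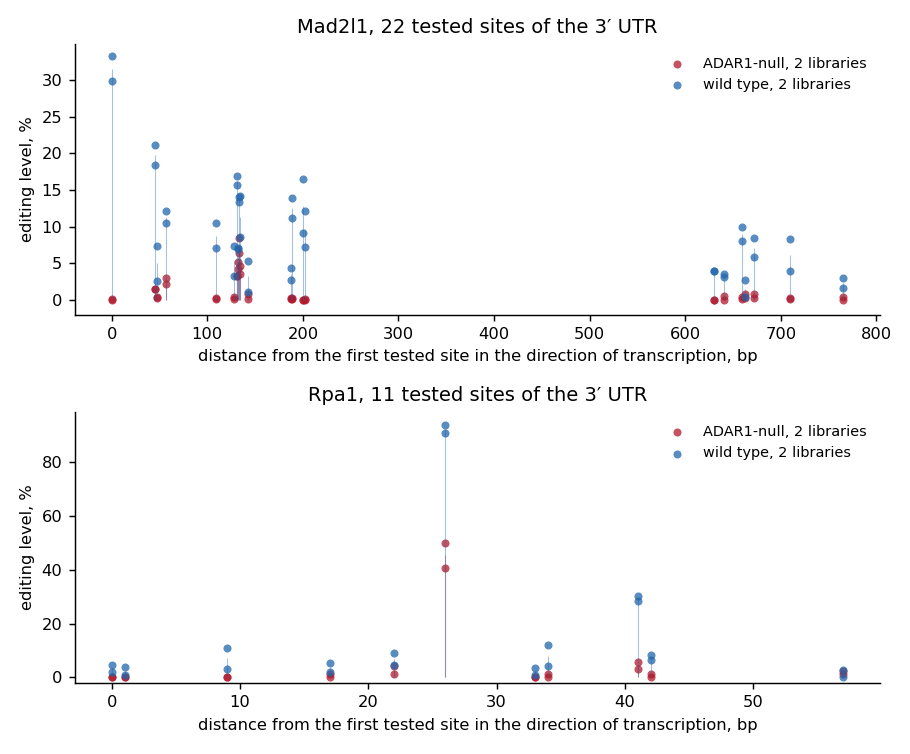
Editing level (%) in each ADAR1-null library (red) and each wild-type library (blue) at the 22 tested Mad2l1 sites and the 11 tested Rpa1 sites, by distance in bp from the first tested site in the direction of transcription, with thin lines up to the mean. In Mad2l1 the first site is at 0.132% and 0% in ADAR1-null cells against 29.9% and 33.3% in wild-type cells, and in Rpa1 a single site stays at a mean of 45.3% in ADAR1-null cells.

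By annotation, 321 of the tested sites lay in 3′ UTRs, of which 160 were lower and 1 was higher in ADAR1-null cells, beside 49.0% lower over all tested sites. Of 30 intronic sites 12 were lower, of 16 sites in noncoding RNA 7, and of 3 intergenic sites 2. Neither of the 2 tested synonymous sites was called, nor the 1 site in a 5′ UTR. The median level in ADAR1-null cells was 0.325% at 3′ UTR sites, 0.281% at introns, 0.535% in noncoding RNA and 0.339% at nonsynonymous sites, against medians of 4.61%, 3.74%, 3.41% and 7.59% in wild-type cells.

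The sites were also read by gene group, each beside the 49.0% of all tested sites that were lower and their median difference of -4.04 points. Genes listed for ADAR2-type recoding or self-editing had 11 tested sites in 7 genes. Of these sites 7 were lower and 4 were not called, with a median difference of -8.19 points. The list names genes, and every tested site of these genes is counted, whether or not it is a known recoding site. The Cog3 synonymous and Lys-to-Arg sites above are therefore among the 4 not called. Among the 7 lower sites are 2 in an intron of Adarb1, the gene of ADAR2, which edits its own transcript. The more highly edited of them, at chromosome 10, 76786805, had 4.38% and 3.15% in ADAR1-null cells, against 14.1% and 19.7% in wild-type cells. Its adjusted p by edgeR's quasi-likelihood test was 0.0446 and lay between 0.0652 and 0.148 when any 1 of the 4 libraries was left out. The genes of the ADAR1-type recoding list, here Blcap and Neil1, had 3 of 4 tested sites lower (median difference -5.30 points), counted in the same way.

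DNA repair and genome maintenance genes had 31 of 48 sites lower and none higher (median difference -5.71 points), of which Mad2l1 and Rpa1 hold 24. The mismatch repair gene Mlh3 had 0.143% and 0.230% in ADAR1-null cells at chromosome 12, 86576054, against 8.59% and 2.77% in wild-type cells. Genes of the nucleolus and nuclear pore had 14 of 25 sites lower (median difference -5.20 points). The nuclear pore gene Nup155 had no edited read among 504 and 471 reads in ADAR1-null cells at chromosome 15, 8109489. In wild-type cells the site had 11.6% and 12.3%. The wild-type mean of 11.9% was 38.7-fold the floor of 3 edited reads over the ADAR1-null group, which covers counting error only. Gnl3l, a nucleolar GTPase, had 2 edited of 3488 reads and 1 of 2291 reads in ADAR1-null cells at chromosome X, 147420066, against 7.60% and 11.8% in wild-type cells.

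Genes of RNA binding, processing and decay had 7 of 18 sites lower (median difference -4.09 points), all in Ncl and Adarb1. In this list Lsm11, a component of the U7 particle that processes histone mRNA, had 0% and 0.153% in ADAR1-null cells and 0.10% and 7.95% in wild-type cells. It was not called, and it was called only without wild-type library 1 (adjusted p = 0.00576 by edgeR's quasi-likelihood test). Fubp3, a single-strand nucleic acid binding protein, had 1.41% and 0% in ADAR1-null cells and 1.68% and 1.30% in wild-type cells, and the groups overlapped.

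Secretory pathway and lysosome genes had 17 of 39 sites lower and 1 higher (median difference -3.19 points). Mmgt1, part of the complex that inserts membrane proteins at the endoplasmic reticulum, had 0 edited of 1476 reads and 2 of 1243 reads in ADAR1-null cells at chromosome X, 53840820, against 15.5% and 13.7% in wild-type cells. Gla, the lysosomal alpha-galactosidase A, had 0.591% and 0.476% in ADAR1-null cells at chromosome X, 131123090, against 11.6% and 15.0% in wild-type cells. Genes of mitochondria and metabolism had 10 of 19 sites lower (median difference -11.1 points), among them the Cds2, Nt5dc3 and Car5b sites above. Of 3 tested cytoskeletal and adhesion sites 2 were lower, the Flna site among them. Iqgap1, a scaffold of the actin cytoskeleton, was not called. The Iqgap1 site, at chromosome 7, 87857166, had 4.33% and 3.78% in ADAR1-null cells and 4.61% and 4.10% in wild-type cells, from 10155 and 6318 ADAR1-null reads, and the groups overlapped. Its difference was -0.29 points (SE 0.375, adjusted p = 0.831 by edgeR's quasi-likelihood test). Of the interferon and innate immunity list only Ifnar1, a subunit of the type I interferon receptor, had tested sites, and none of its 4 was called. Its intronic site at chromosome 16, 91490680, had no edited read among 53 and 248 reads in ADAR1-null cells and 0% and 6.82% in wild-type cells, and it was called only without wild-type library 1 (adjusted p = 0.0354 by edgeR's quasi-likelihood test).

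Wild-type levels were not the same as those of STAT2-null cells, the other line whose label names no change in an ADAR gene. At the 189 sites lower in ADAR1-null cells, every STAT2-null library was lower than every wild-type library at 95 and higher at 30. STAT2-null cells had a mean under 1% at 33 of them. The 189 sites were chosen with wild-type levels, which favours sites where another line is lower, so these counts describe that choice. At the 2900026A02Rik and Gria3 sites above, both STAT2-null libraries were at 0%, and the Dnajc1 site at 18136282 was at 0.416% and 0%. The Flna site was at 0.513% and 1.46% in STAT2-null libraries, 1.19% and 0% in p150 knockout libraries and 0% and 1.17% in ADAR2-null libraries. The uc009qeo.1 site was at 7.4% and 3.7% in STAT2-null libraries, 4.46% and 6.62% in p150 knockout libraries and 0.598% and 0% in ADAR2-null libraries. The Agphd1 site, which was not called, was at 0.391% and 0.224% in STAT2-null libraries. At the Blcap Tyr-to-Cys site, by contrast, STAT2-null libraries had 30.9% and 30.8%, and at the Mad2l1 site at 66490075 they had 45.5% and 45.5%, both above wild type. Averaged over the 386 tested sites, the level was 1.18% ± 0.00135 in ADAR1-null cells, 1.57% ± 0.00263 in p150 knockout cells, 2.25% ± 0.517 in ADAR2-null cells, 5.31% ± 0.331 in STAT2-null cells and 8.10% ± 0.289 in wild-type cells (SD, n = 2 libraries each). The sites were chosen with ADAR1-null and wild-type levels, so these means describe that choice. The SDs are of averages over sites and do not show how far libraries differ at single sites. The median level over the same sites was 0.154% in ADAR1-null library 1 and 0.361% in library 2. At the same sites after interferon, ADAR1-null libraries averaged 0.749% ± 0.0679 and wild-type libraries 20.8% ± 1.43.

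To see where the ADAR1-null line differed from the p150 knockout line, the same test was run against untreated p150 knockout cells. This comparison shares the ADAR1-null libraries with the one above. Of 5171 sites with the coverage 152 were tested, and 18 were called (11.8%), 14 lower and 4 higher in ADAR1-null cells. The filter on level used the 4 libraries compared, so a site could pass through 1 line only and the counts describe that selection. With no minimum level, 11 of 4503 sites with an edited read in these libraries were called (0.244%). Sites at which p150 knockout cells kept editing included Mdc1 35994679, with 0% and 0.735% in ADAR1-null cells against 11.2% and 8.99% in p150 knockout cells (-9.71 points, SE 1.15, edgeR's quasi-likelihood test, adjusted p = 0.00484). The Blcap Tyr-to-Cys site had 0.388% and 0.181% in ADAR1-null cells against 4.95% and 7.37% in p150 knockout cells (adjusted p = 0.000155). Malt1, a paracaspase of immune signalling, had 0% and 0.271% in ADAR1-null cells at chromosome 18, 65636731, against 8.81% and 9.13% in p150 knockout cells. Ovca2 had 0% and 0.144% in ADAR1-null cells against 7.59% and 8.07% in p150 knockout cells. The 4 sites higher in ADAR1-null cells were those of Als2cl (11.4% and 10.4% against 0.498% and 0.818%), Dnajc1 18136982 (3.14% and 5.39% against 0% in both p150 knockout libraries), Iqgap1 (4.33% and 3.78% against 0.769% and 1.30%) and Mdc1 35995565 (2.06% and 1.95% against 0% and 0.249%). With the 4 libraries alone, edgeR's quasi-likelihood test called 0 of the 152 sites, while limma called 24, and 34 had an unadjusted p under 0.05 in the fit on all libraries. Without ADAR1-null library 1, 10 sites were called, and without p150 knockout library 1, 12.

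Untreated ADAR2-null cells are labelled as lacking the other enzyme. Against them, 86 of 236 tested sites were called (36.4%), 74 lower and 12 higher in ADAR1-null cells. The 236 came from 5420 sites with the coverage, and the filter on level again used the 4 libraries compared, so the counts describe that selection. With no minimum level, 66 of 4767 sites with an edited read in these libraries were called (1.4%). This comparison uses the same ADAR1-null libraries, and 40 sites were called with the 4 libraries alone. The greatest increase was at the Cog3 Ile-to-Val site, with 50.4% and 51.7% in ADAR1-null cells against 7.73% and 8.13% in ADAR2-null cells, a difference of 43.1 points (SE 0.680, edgeR's quasi-likelihood test, adjusted p = 0.000292). The uc012aji.1 site had 23.3% and 18.1% in ADAR1-null cells against 2.67% and 0.911% in ADAR2-null cells (adjusted p = 0.000125). Als2cl had 11.4% and 10.4% in ADAR1-null cells against 0.725% and 0.274% in ADAR2-null cells. Klhl24, which encodes a Kelch-type adaptor of a ubiquitin ligase, had 3.72% and 4.37% in ADAR1-null cells against 0.346% and 0.408% in ADAR2-null cells. In Mad2l1 the site at 66490207, beside the one that kept most editing, had 5.17% and 4.23% in ADAR1-null cells against 1.52% and 1.33% in ADAR2-null cells.

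The sites lower in ADAR1-null than in ADAR2-null cells included several of those named above. The Blcap Tyr-to-Cys site had 0.388% and 0.181% in ADAR1-null cells against 23.2% and 15.5% in ADAR2-null cells (-19.1 points, SE 3.82, edgeR's quasi-likelihood test, adjusted p = 1.50e-06). Car5b had 0% and 0.446% in ADAR1-null cells against 17.3% and 22.7% in ADAR2-null cells, and Exoc8 had 1.44% and 0.769% against 17.6% and 12.3%. Mdc1 35994679 had 0% and 0.735% in ADAR1-null cells against 23.0% and 21.5% in ADAR2-null cells. Rpa1 75114517, edited in 35 of 70 reads and in 40.7% of reads in ADAR1-null cells, had 36.4% and 44.6% in ADAR2-null cells and 58.0% and 51.6% in p150 knockout cells, so that the ADAR1-null and ADAR2-null libraries overlapped there. The greatest difference of this comparison was at the Lys-to-Glu site of Ifi202b, an interferon-inducible gene, at chromosome 1, 175901522. It had 0.181% and 0.302% in ADAR1-null cells against 59.4% and 60.5% in ADAR2-null cells. The edited base was at 61.1% and 57.4% in STAT2-null cells, and at 0.148% and 0.611% in untreated wild-type cells. After interferon, wild-type cells had 0.0768% and 0.306%, and the untreated p150 knockout libraries lacked the coverage. The site was thus near 60% in 2 lines and near 0% in 2 others, and whether the base there comes from RNA editing or from the genome of a line was not tested.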

How the data were processed

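Reads were aligned with BWA, handled with SAMtools and placed on mm9, per the submitters' processing notes; no source used here gives versions, filters or strand rules. The authors deposited, per library, the coverage and the edited reads of each listed site as counts, and the editing level as a fraction, per the file headers. Levels were recomputed from the deposited counts. Whether positions count from 0 or 1 is not stated, and no sequence is printed because no mm9 genome was used here.

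Edited and unedited counts of all 20 libraries were fitted with edgeR 4.0.16 (quasi-likelihood, a term per library and per group), R 4.3.3. Sites needed 50 reads in each of the 4 libraries compared and a mean level of 1% over them; calls are at an adjusted p under 0.05 (Benjamini-Hochberg, two-sided). An SE is that of the difference between 2 means of 2 libraries. limma 3.58.1 on log2 odds with 0.5 added reads, other minimum levels and coverages, the 4 libraries alone, a replicate block on those 4 and each library left out were alternatives. Replicate libraries differed beyond counting error: chi-square per degree of freedom was 7.02 over 192 sites in ADAR1-null and 20.8 over 365 sites in wild-type libraries. No library was counted as a repeat, but these values cannot tell separate cultures from separate preparations of 1 culture.

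The named sites are, 1 per gene, the 16 greatest called decreases and every increase where the groups do not overlap, the 10 highest in ADAR1-null cells, every tested nonsynonymous site and up to 4 genes of each of 10 lists. The lists and the sites compared were chosen with earlier results of these data known. Of 112 tested genes, 85 matched a symbol and 8 a synonym of RefSeq GRCm38.p6. Same-numbered libraries did not deviate together (Pearson r over 386 sites 0.0359 for ADAR1-null and wild type), so replicate numbers were not used as pairs. Results of 2 of the named genes are not reported here.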

Additional observations from a re-analysis of the deposited data

Results flagged for a closer look

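The Dnajc1 site at 18136982 was singled out because its difference had opposite directions in the 2 treatments: 4.11 points higher in untreated ADAR1-null than in untreated wild-type libraries, and -19.7 points after interferon, with the groups not overlapping in either. The difference between the treatments was not tested.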

How the results depend on the processing

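Against wild type, 147 sites were called with the replicate block (fitted, as all block results here, on the 4 libraries compared), 206 by limma, 113 with the 4 libraries alone and 89 of 109 at a minimum level of 5%; leaving out 1 library gave 141 to 181 calls. Against p150 knockout, 11 were called with no minimum level, 4 at 5%, 0 with the 4 libraries alone, 0 with the replicate block and 10 to 16 without 1 library. Against ADAR2-null, 20 were called at 5%, 40 with the 4 libraries alone, 33 with the replicate block and 61 to 83 without 1 library. The cause was not tested. The mean difference from wild type was -7.35 points as edited over all reads, -4.54 as a median, -0.5665 with no minimum level, -16.5 at 5%, -4.58 with STAT2-null levels, -5.52 over loci, -6.59 at 20 reads and -3.89 with the minimum over all 20 libraries, an alternative chosen after seeing the data; without 1 library it was -7.12 to -6.71. Of 46 named sites 32 were called, 19 of them in every alternative that tested them, and 13 were lost in at least 1. With the 4 libraries alone 10 were lost, with the replicate block 5 and in limma 2. Reversed directions, all at sites not called, were Cycs (-1.30 without ADAR1-null library 1), Kcna1 (-10.3 without wild-type library 1 and 0.0732 without wild-type library 2) and Cog3 76119531 (from -0.251 without ADAR1-null library 2 to 0.457 without ADAR1-null library 1, and -0.0227 without wild-type library 1). At 50 reads, a level of a few percent rests on few edited reads.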
